A study of Mus musculus with 58 samples.

Results

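Grn, Sort1, Psap and Tmem106b are 4 genes of the lysosome whose products meet in one pathway. They were taken by symbol from each of the 3 raw count tables of the series, which list 24940 genes in the age series and 10277 and 10589 genes in the experiments with antisense oligonucleotides (ASOs). All 4 were listed in every table and all 4 passed the filter on low counts in every table. The libraries were made from polyA RNA of microglia that had been sorted from forebrain as CD11b+, CD45low and CX3CR1+ cells, and all mice were on the C57BL/6 strain. An age series compared wild-type (WT) mice with SgshKO mice, which lack the heparan sulfate-degrading enzyme encoded by Sgsh. It has 3 WT libraries at 3 weeks, 2 at 4 months and 4 at 8 months, and 4, 2 and 7 SgshKO libraries at the same ages. In a second experiment WT mice, whose age the labels do not give, were injected with PBS, with the control oligonucleotide ntc, or with one that targets Mitf, Tfeb or Tfe3, and each of these 5 groups has 4 libraries. SgshKO mice, likewise of unstated age, received the ntc ASO or the Mitf and Tfe3 ASOs together, with 8 libraries each. Each ASO was given once into a cerebral ventricle, 14 days before the cells were taken. The labels do not say how many animals stand behind a library, so the p-values measure the spread between these libraries.

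Progranulin, the product of Grn, is a secreted glycoprotein built of cysteine-rich granulin repeats. Sortilin, the product of Sort1, is a VPS10-domain receptor that binds progranulin and carries it to lysosomes, where proteases cut it into granulins. Prosaposin, the product of Psap, is the precursor of the saposins that help hydrolases reach their sphingolipid substrates, and it binds progranulin and can take it to lysosomes by a route that does not need sortilin. TMEM106B is a membrane protein of late endosomes and lysosomes. Loss of one GRN copy causes frontotemporal dementia in people, loss of both causes neuronal ceroid lipofuscinosis, and variants of TMEM106B modify the risk of the dementia. Microglia are the main source of progranulin in the brain besides neurons. Mitf, Tfeb and Tfe3 are related basic helix-loop-helix transcription factors that bind E-box and M-box motifs at lysosomal genes.

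Grn lies on chromosome 11 at chr11:102430322-102436809, Psap on chromosome 10 at chr10:60277628-60302600, Sort1 on chromosome 3 at chr3:108284064-108361519 and Tmem106b on chromosome 6 at chr6:13069759-13089269, all on the plus strand, in the authors' coordinates of mm10. The 3′ end of Grn overlaps Fam171a2 on the opposite strand, and Sort1 overlaps the antisense genes Gm12523 and Gm43099. Whether strand was used in counting is not stated, so reads of these pairs cannot be told apart. Because Grn and Psap rose together in several comparisons below, their upstream sequence is shown, from RefSeq on GRCm38.p6, plus strand, 5′ to 3′. For Grn these are the 58 bases before the earliest annotated start (chr11:102430257-102430314), with an M-box in capitals, and for Psap the bases before its start (chr10:60277378-60277626), which held none of the motifs searched.
Grn: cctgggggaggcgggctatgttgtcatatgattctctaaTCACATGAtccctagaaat
Psap: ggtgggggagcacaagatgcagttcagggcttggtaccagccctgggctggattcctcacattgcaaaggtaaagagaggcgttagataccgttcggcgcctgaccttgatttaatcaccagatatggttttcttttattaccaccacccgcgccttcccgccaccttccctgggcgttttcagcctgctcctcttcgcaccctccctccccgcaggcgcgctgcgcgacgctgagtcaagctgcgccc
The search covered both strands of the 250 bases before each RefSeq start, with windows for 3 of the 4 genes (Grn, Psap and Tmem106b). It used the M-box TCACATGA, the E-box core CACGTG, the same core flanked by T and A (TCACGTGA), and the longer palindrome known as the CLEAR motif. The last 3 overlap one another. The M-box stood once in the Grn window, and 0.984% of 27025 genes with a window held it. Its first base lies 211 bases before the RefSeq start, and its last base lies 12 bases before the earliest start. No window of Grn, Psap or Tmem106b held CACGTG, which 6.86% of genes held, nor TCACGTGA (0.907% of genes) or the CLEAR motif (0.27%). For Grn only 58 bases of the window lie before the earliest annotated start, and sequence further upstream was not searched. A match describes the letters in a window and shows no binding.

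Library totals spanned 8191508 to 27106584 counts (age series), 14372015 to 30378870 (WT ASO) and 12517838 to 30431437 (SgshKO ASO). Every member was well covered at this depth, from 1583 to 8119 counts per library for Tmem106b and from 32337 to 223301 for Psap. All 8 microglial markers checked were present in each group, and their sums were lower in SgshKO at every age. They were 49054.5 to 50362 CPM in WT against 42773 to 45885 CPM in SgshKO at 3 weeks. At 4 months they were 41161 to 45475 against 26963 to 30339 CPM, and at 8 months 37719 to 45265 against 28546 to 31667 CPM. CPM are normalised read counts scaled to the library total and its TMM factor. The 8 neuronal markers together stayed at or below 7.82 CPM in the age series and none is listed in the ASO tables. Astrocyte markers summed to 153 to 168 CPM in WT against 192 to 266 in SgshKO at 3 weeks. At 8 months they summed to 288 to 403 against 179 to 300 CPM. Endothelial markers, of which 2 or 3 were at 0 in each group, summed to 63.7 to 79.3 against 52.5 to 58.4 CPM at 3 weeks. Their sums were 66.6 to 73.1 against 37.5 to 56.8 CPM at 8 months. Oligodendrocyte markers held 118 to 147 against 146 to 161 CPM at 8 months. Markers of monocytes and neutrophils stood apart: their 8 genes summed to 5.81 to 15.1 CPM in WT and 6.61 to 35.7 CPM in SgshKO at 3 weeks, but to 10.04 to 12.9 against 3015 to 14830 CPM at 4 months and 7.87 to 13.4 against 438 to 5779 CPM at 8 months. Of these 8 markers only Ly6c2 was at 0 in a whole group, WT at 4 months. Border macrophage markers, of which none was at 0 in any group, were also higher in SgshKO, at 92.8 to 120.3 against 64.5 to 84.5 CPM at 3 weeks, 83.1 to 134 against 15.2 to 25.9 at 4 months and 82.2 to 134 against 20.1 to 38.1 at 8 months. Sgsh itself still had transcripts in SgshKO, at 14.9 to 23.4 CPM against 20.3 to 25.9 in WT at 3 weeks and at 20.1 to 34.7 against 31.9 to 59.2 at 8 months. The labels do not name the altered stretch of the gene, so this level does not check the genotype.

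Measured per transcript length, as the authors' TPM, the members followed one order in 22 of 22 age-series libraries: Psap, then Grn, then Sort1, then Tmem106b. Psap ranked 11th to 24th and Grn 21st to 39th among the 24940 genes, against ranks of 322 to 758 for Sort1 and 1697 to 3024 for Tmem106b. The ligand exceeded its receptor in transcript level by 6.27 to 18.6 times. The TPM ratio of Grn to Sort1 was 9.20 ± 1.02 (SD, n = 3) in WT and 16.6 ± 0.996 (n = 4) in SgshKO at 3 weeks. It was 7.34 ± 0.179 (n = 2) and 12.6 ± 0.444 (n = 2) at 4 months, and 7.61 ± 1.13 (n = 4) and 16.6 ± 1.71 (n = 7) at 8 months. No WT library had a ratio above 10.2 and no SgshKO library one below 12.3, so the genotypes did not overlap. Psap and Grn lay closer together. The TPM ratio of Psap to Grn was 1.53 ± 0.136 in WT and 1.22 ± 0.0728 in SgshKO at 3 weeks, and 1.80 ± 0.117 and 1.71 ± 0.0956 at 8 months. For Sort1 and Psap the TPM table rests on another transcript than the count table, with lengths of 6809 against 6907 and 2551 against 2635 bases.

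The age series asks how loss of Sgsh changes microglial transcripts as the mice grow older. Grn, the ligand, was higher in SgshKO at every age. At 3 weeks the WT libraries held 1898, 2015 and 2238 CPM and the SgshKO libraries 3331, 3384, 3794 and 3511 CPM. At 4 months the values were 1815 and 1755 against 2725 and 2416 CPM. At 8 months WT had 1887, 1997, 2135 and 1939 CPM, and the 7 SgshKO libraries ran from 2916 over a median of 3202 to 3708 CPM. The lowest SgshKO library was above the highest WT library at each age. The log2 fold changes were 0.77 ± 0.08 (SE, 1.71-fold, edgeR adjusted p = 3.055e-07), 0.53 ± 0.10 (1.44-fold, adjusted p = 7.472e-04) and 0.71 ± 0.07 (1.63-fold, adjusted p = 6.289e-09) at 3 weeks, 4 months and 8 months.

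Psap, the second secreted precursor, was also higher in SgshKO at every age. Its WT libraries held 3462, 3566 and 3430 CPM at 3 weeks, against 4272, 4882, 5343 and 4522 CPM in SgshKO. At 4 months the levels were 3822 and 3645 against 5268 and 4936 CPM. At 8 months they were 3973, 4308, 4243 and 3618 CPM in WT and 5711 to 6621 CPM, with a median of 6253, in the 7 SgshKO libraries. As for Grn, the groups did not overlap at any age. The log2 fold changes were 0.45 ± 0.08 (SE, 36.4% higher, edgeR adjusted p = 3.242e-04), 0.45 ± 0.10 (1.37-fold, adjusted p = 0.00255) and 0.62 ± 0.07 (1.54-fold, adjusted p = 3.801e-08). With TPM and no filter on low values, Psap no longer passed at 3 weeks (0.38, limma adjusted p = 0.0680) or 4 months (0.36, adjusted p = 0.119).

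Sort1, the receptor, moved the other way, and its difference passed the test at 8 months only. At 3 weeks WT held 684, 649 and 647 CPM and SgshKO 594, 656, 672 and 586 CPM, so the groups overlapped (log2 fold change -0.07 ± 0.10, SE, edgeR adjusted p = 0.778). At 4 months the libraries stood at 722 and 719 against 626 and 583 CPM without overlap (-0.25 ± 0.13, adjusted p = 0.178). At 8 months WT had 774, 732, 711 and 914 CPM, and SgshKO ran from 506 over a median of 603 to 663 CPM. Every SgshKO library at 8 months was below every WT library, and Sort1 fell by 0.43 ± 0.08 on the log2 scale (SE, adjusted p = 9.999e-05), to 0.744 of its WT level. Whether the genotype effect on Sort1 differed between ages was tested as an interaction. From 3 weeks to 8 months it changed by -0.35 ± 0.12 (SE, 95% interval -0.61 to -0.09, adjusted p = 0.0807), short of the threshold. It passed without SgshKO 8-month replicate 2 (-0.38, adjusted p = 0.0460) or replicate 5 (-0.40, adjusted p = 0.0384) and with TPM (-0.43, limma adjusted p = 0.0446).

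Tmem106b, the membrane protein, passed the test at no age. WT held 203, 194 and 183 CPM and SgshKO 229, 217, 206 and 204 CPM at 3 weeks, where the groups lie next to each other without overlap. At 4 months the levels were 193 and 154 against 211 and 193 CPM, and at 8 months 178, 147, 152 and 140 CPM against 149 to 197 CPM with a median of 166. The log2 fold changes were 0.15 ± 0.10 (SE, 95% interval -0.06 to 0.35, edgeR adjusted p = 0.474), 0.22 ± 0.13 (-0.05 to 0.49, adjusted p = 0.257) and 0.10 ± 0.08 (-0.06 to 0.27, adjusted p = 0.324), and the last was -0.04 with TPM. With 1 library left out in turn, the value ran from 0.081 (without WT replicate 2) to 0.41 (without WT replicate 1) at 4 months and from 0.032 (without WT replicate 4) to 0.18 (without WT replicate 1) at 8 months, and it was called in none of these fits.

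**Figure D1:**
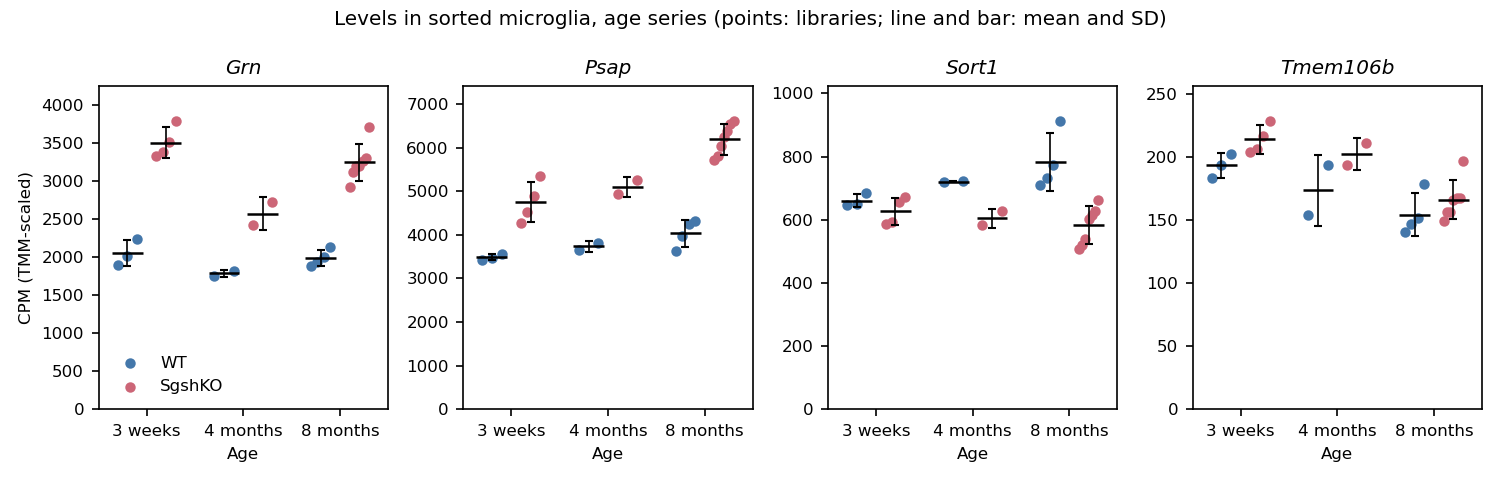
CPM (TMM-scaled) of the 4 genes in each library of the age series, by age, with WT in blue and SgshKO in red; lines and bars are the mean and SD. Grn and Psap are higher in all SgshKO libraries than in all WT libraries of the same age, Sort1 is lower in SgshKO at 8 months, and Tmem106b libraries of both genotypes lie between 140 and 229 CPM.

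Beside these counts stand the shares of all genes tested. Of 14309 genes, 9.03% were called at 3 weeks (5.31% higher, 3.72% lower), 19.5% at 4 months (10.3% higher, 9.26% lower) and 40.5% at 8 months (21.6% higher, 18.9% lower), and groups without overlap were found for 22.5%, 58.1% and 25.2% of genes. The members called were 2, 2 and 3 of 4. A larger log2 fold change than that of Grn was found in 6.37%, 25.4% and 20.3% of genes at 3 weeks, 4 months and 8 months, and larger than that of Psap in 12.3%, 27.7% and 22.1%. For Sort1 at 8 months that share was 83.5%. Without the 2 SgshKO 8-month libraries whose monocyte and neutrophil markers summed above 1000 CPM (a choice made after seeing the data), the 8-month values were 0.69 for Grn, 0.61 for Psap and -0.41 for Sort1. The 5 libraries kept still held at least 438 CPM of these markers, against at most 13.4 CPM in WT. The part of monocytes and neutrophils, border macrophages, astrocytes, endothelial cells and oligodendrocytes in these values was not tested. Nor was that of the lower sums of microglial markers in SgshKO. In sorted bulk samples, more transcripts per cell and more cells of another kind cannot be told apart.

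Across ages the members also moved within a genotype. In WT, only Tmem106b passed, and only between 3 weeks and 8 months (log2 change -0.32 ± 0.10, SE, edgeR adjusted p = 0.0410, against 7.65% of all genes called, and 5.21% and 5.77% from 3 weeks to 4 months and from 4 to 8 months); the call was lost without any 1 of the 3 WT 3-week libraries or of WT 8-month replicates 2, 3 and 4 (adjusted p of 0.0677 to 0.152). In SgshKO, Tmem106b fell by 0.37 ± 0.08 over the same span (adjusted p = 0.001005, 30.6% of genes called), from 204 to 229 CPM to 149 to 197 CPM. Psap rose by 0.38 ± 0.06 (adjusted p = 7.451e-05) in SgshKO between 3 weeks and 8 months. Its change in WT was 0.21 ± 0.08 (adjusted p = 0.104), which passed without WT 8-month replicate 4 (0.26, adjusted p = 0.0453) and with DESeq2 (0.22, adjusted p = 0.0419), and the difference between genotypes did not pass (0.17 ± 0.10, adjusted p = 0.337). Grn in SgshKO fell by 0.45 ± 0.09 from 3 weeks to 4 months (adjusted p = 6.581e-04, 32.7% of genes called) and then rose by 0.34 ± 0.09 to 8 months (adjusted p = 0.00830, 19.8% called). Psap (0.28, adjusted p = 0.0205) and Tmem106b (-0.29, adjusted p = 0.0493) also passed between 4 and 8 months. Those steps rest on 2 libraries at 4 months: without SgshKO 4-month replicate 2 the adjusted p was 0.137 for Grn, 0.163 for Psap and 0.170 for Tmem106b, and without replicate 1 Tmem106b had 0.374. The call of Tmem106b was also lost without any 1 of SgshKO 8-month replicates 1, 2, 3, 4, 6 and 7 (adjusted p up to 0.0645). The 2 SgshKO libraries at 4 months held 3015 and 14830 CPM of monocyte and neutrophil markers. SgshKO libraries held 6.61 to 35.7 CPM at 3 weeks and 438 to 5779 CPM at 8 months. The part of these cells in the changes with age was not tested. No member passed the test of a change in genotype effect between any ages, which 2.52% (4 months against 3 weeks), 9.25% (8 months against 3 weeks) and 0.391% (8 against 4 months) of genes did.

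**Figure D2:**
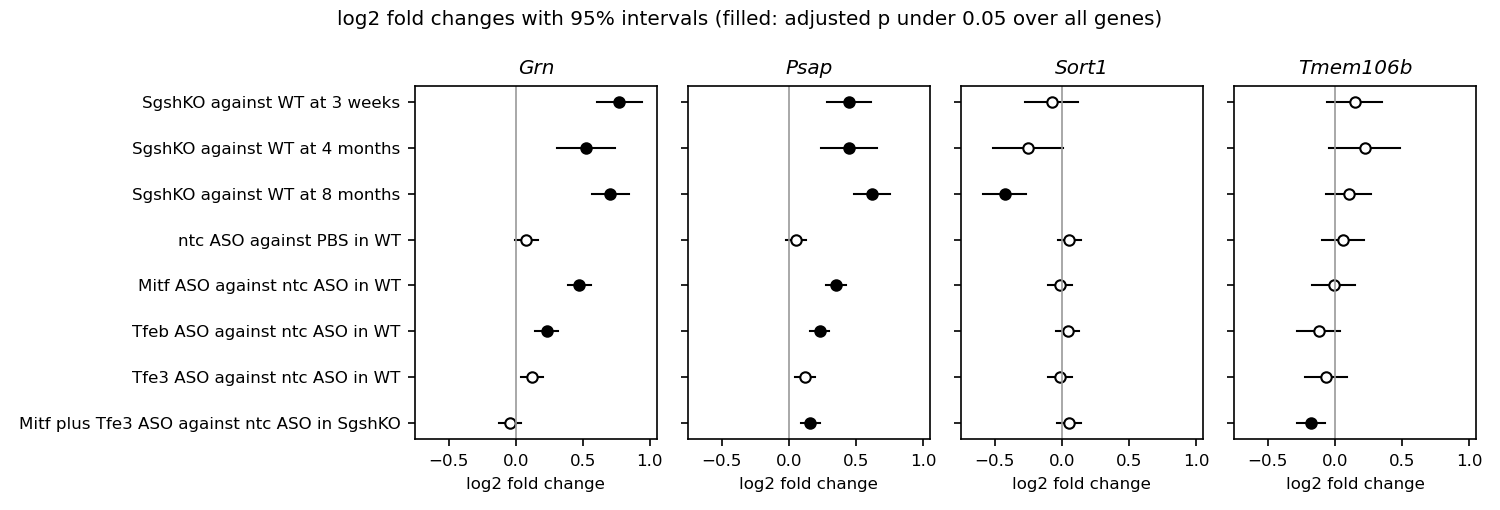
log2 fold changes of the 4 genes in 8 comparisons, with 95% intervals from the edgeR fit; filled points have an adjusted p under 0.05 over all genes. Grn and Psap are filled at all 3 ages and with the Mitf and Tfeb ASOs, Sort1 at 8 months only, and in SgshKO with the Mitf and Tfe3 ASOs together Psap is filled to the right and Tmem106b to the left of 0.

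The ASO experiment in WT mice asks which of the related transcription factors sets the level of these genes. Each ASO lowered its target. Mitf had 34.5 to 50.4 CPM with ntc and 1.01 to 2.15 CPM with its ASO (log2 fold change -4.81). Tfeb went from 52.6 to 58.1 CPM to 4.59 to 6.91 CPM (-3.24), and Tfe3 from 192 to 202 CPM to 34.9 to 40.5 CPM (-2.38). None of these 3 genes was called with the ASO against another, while 11% of genes were called with the Mitf ASO, 0.778% with the Tfeb ASO and 2.16% with the Tfe3 ASO. Libraries carry a number from 1 to 4, called grp in their titles, which was a block in the fit.

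Grn rose when Mitf was lowered. In grp 1 to 4 the ntc libraries held 2811, 2921, 3207 and 2988 CPM and the Mitf ASO libraries 3842, 4297, 4408 and 4029 CPM, all above every ntc library, which held for 7.67% of genes in either direction. With the Tfeb ASO, Grn stood at 3448, 3496, 3588 and 3436 CPM, again above all ntc libraries (4.07% of genes), and with the Tfe3 ASO at 3037, 3208, 3440 and 3276 CPM, which overlaps them. PBS libraries, at 2483, 2851, 2983 and 2986 CPM, gave no call against ntc (0.08 ± 0.04, SE, edgeR adjusted p = 1). In that comparison edgeR called 0% of genes, with 415 of 10277 at an unadjusted p under 0.05, and DESeq2 called 2. The log2 fold changes against ntc were 0.47 ± 0.04 for Mitf (1.39-fold, adjusted p = 6.057e-07), 0.23 ± 0.04 for Tfeb (1.17-fold, adjusted p = 0.00765) and 0.12 ± 0.04 for Tfe3 (1.09-fold, adjusted p = 0.134). Grn was higher than with ntc in 4 of 4 grps under each ASO.

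Psap also rose when Mitf was lowered. Its ntc libraries held 4357, 4637, 5094 and 4836 CPM in grp 1 to 4 and its Mitf ASO libraries 5688, 5853, 6441 and 6209 CPM, without overlap. The Tfeb ASO gave 4986, 5258, 6043 and 5939 CPM and the Tfe3 ASO 4745, 5018, 5523 and 5284 CPM, both overlapping ntc. PBS libraries had 4342, 4311, 4640 and 4894 CPM. The log2 fold changes were 0.35 ± 0.03 (SE, 1.28-fold, edgeR adjusted p = 3.476e-06) for Mitf, 0.23 ± 0.03 (1.17-fold, adjusted p = 0.00230) for Tfeb and 0.12 ± 0.03 (1.09-fold, adjusted p = 0.0843) for Tfe3. Psap too was higher than with ntc in 4 of 4 grps under each ASO, with the same ntc libraries in each count. With ntc it was higher than with PBS in 3 of 4 grps (-0.02 to 0.13).

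The sizes were compared between ASOs in the same fit. Grn was higher with the Mitf than with the Tfe3 ASO (0.35 ± 0.04, SE, edgeR adjusted p = 1.916e-05, 3.76% of genes called) and than with the Tfeb ASO (0.24 ± 0.04, adjusted p = 0.00208, 3.53% called). Psap was higher with the Mitf than with the Tfe3 ASO (0.23 ± 0.03, adjusted p = 4.178e-04), whereas its difference from the Tfeb ASO missed the threshold (0.12 ± 0.03, adjusted p = 0.0560). That difference passed with DESeq2 (adjusted p = 0.0114), as did Psap with the Tfe3 ASO against ntc (adjusted p = 0.0157). Between the Tfeb and Tfe3 ASOs neither gene differed by the test (0.11 for both, with 95% intervals of 0.03 to 0.19 for Grn and 0.04 to 0.18 for Psap; 1.62% of genes called). The smaller of these effects depend on the block: without it, the Tfeb effect had an adjusted p of 0.300 for Grn and 0.451 for Psap, and the Mitf ASO no longer differed from the Tfeb ASO for Grn (adjusted p = 0.153) or from the Tfe3 ASO for Psap (adjusted p = 0.179). The Tfeb effect on Grn was also lost without ntc replicate 1 or Tfeb ASO replicates 1 or 2 (adjusted p of 0.0689, 0.0718 and 0.0913). The Mitf effect on both genes was called in every fit made.

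Sort1 and Tmem106b passed with none of the 3 ASOs. Sort1 held 755, 850, 908 and 993 CPM with ntc in grp 1 to 4, and 803, 818, 876 and 963 CPM with the Mitf ASO (log2 fold change -0.02 ± 0.04, SE, 95% interval -0.10 to 0.07, edgeR adjusted p = 0.865). Its values ranged from 773 to 984 CPM with the Tfeb ASO and from 784 to 969 CPM with the Tfe3 ASO, and grp 1 was the lowest within all 4 ASO groups. Tmem106b held 236, 251, 234 and 267 CPM with ntc and 265, 258, 219 and 241 CPM with the Mitf ASO (-0.01 ± 0.08, 95% interval -0.17 to 0.15, adjusted p = 0.958). Under the Tfeb ASO it was 204 to 253 CPM (-0.12 ± 0.08, adjusted p = 0.466) and under the Tfe3 ASO 210 to 250 CPM (-0.06 ± 0.08, adjusted p = 0.722). With the Mitf ASO, 3 of 8 microglial markers were lower and 0 higher, and their sum was 54888 to 56502 CPM against 58405 to 61926 CPM with ntc. The 2 border macrophage markers listed summed to 44.9 to 57.95 against 30.3 to 50.98 CPM, and neither was called. The part of these shifts in the Grn and Psap values was not tested.

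**Figure D3:**
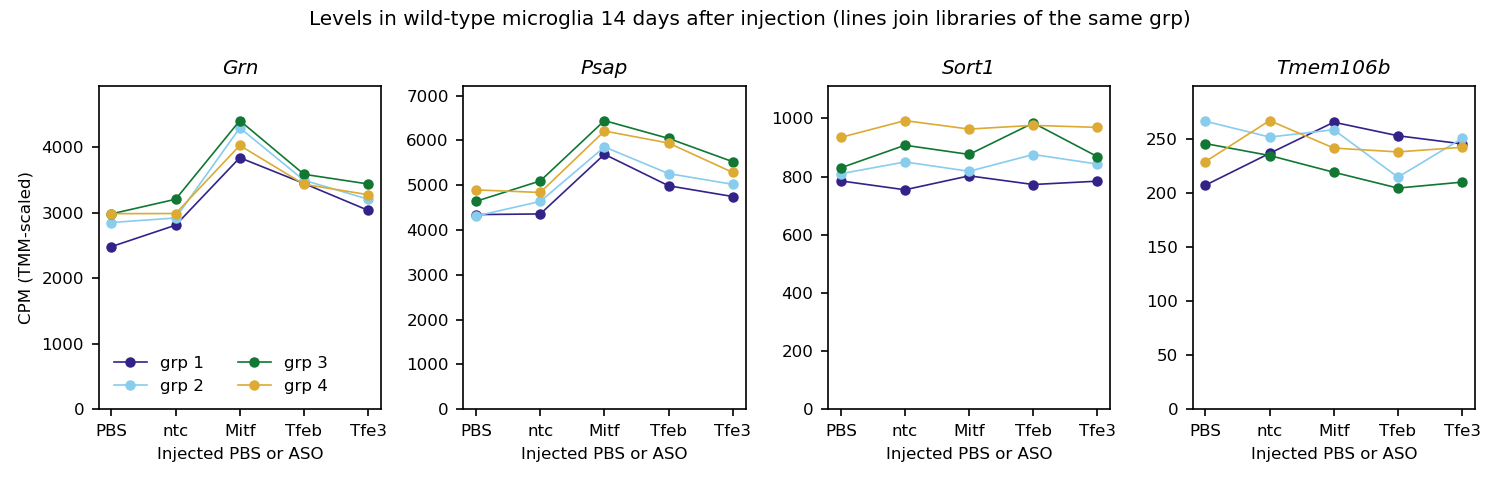
CPM (TMM-scaled) of the 4 genes in WT microglia 14 days after PBS or ASO; each line joins the libraries of one grp. All 4 lines of Grn and of Psap peak at the Mitf ASO, while Sort1 stays between 755 and 993 CPM with any ASO and Tmem106b between 204 and 267 CPM.

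The experiment in SgshKO mice asks how the same genes respond there when Mitf and Tfe3 are lowered together. Mitf went from 60.7 to 82.1 CPM to 7.51 to 23.2 CPM (log2 fold change -2.26) and Tfe3 from 137 to 194 CPM to 75.04 to 87.1 CPM (-1.08). Grn did not rise here. With ntc it held 3945, 4587, 4037 and 4349 CPM in grp 1 and 4059, 4036, 3860 and 3909 CPM in grp 2. With both ASOs it held 4377, 4515, 3995 and 3888 CPM in grp 1 and 3775, 3711, 3762 and 3807 CPM in grp 2. In grp 2 the 4 treated libraries were all below the 4 controls, in grp 1 they overlapped, and the change over both was -0.04 ± 0.04 (SE, 95% interval -0.13 to 0.04, edgeR adjusted p = 0.519). The share of all genes that separate in this way within a single grp was not counted, here or for Psap and Tmem106b below.

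Psap was the one member that was higher. Its ntc libraries held 5857, 6345, 6239 and 6341 CPM in grp 1 and 7130, 6844, 6588 and 7123 CPM in grp 2. The treated libraries held 7262, 7380, 6896 and 7481 CPM in grp 1, all above the controls, and 7100, 7376, 7359 and 7669 CPM in grp 2, which overlapped them. The log2 fold change was 0.16 ± 0.03 (SE, 11.7% higher, edgeR adjusted p = 0.00759), beside 9.33% of all genes called and 4.84% called higher. Tmem106b was lower (-0.18 ± 0.05, adjusted p = 0.0313, 4.5% of genes called lower). It held 310, 272, 304 and 277 CPM with ntc and 235, 270, 228 and 230 CPM with both ASOs in grp 1, and 286, 267, 269 and 273 against 267, 273, 238 and 255 CPM in grp 2. The call of Tmem106b was lost without any 1 of 7 of the 16 libraries (ntc replicates 1 and 3 and treated replicates 1, 3 and 4 of grp 1, ntc replicate 1 and treated replicate 3 of grp 2; adjusted p up to 0.0651) and on the authors' batch-corrected values (adjusted p = 0.104).

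Within grp 1 alone the change was 0.24 for Psap (edgeR adjusted p = 0.0657) and -0.26 for Tmem106b (adjusted p = 0.0828). Within grp 2 alone it was 0.08 (adjusted p = 0.257) and -0.10 (adjusted p = 0.310). The difference between the grps, tested after the data were seen, had an edgeR adjusted p of 0.272 for Psap and 0.308 for Tmem106b. There edgeR called 0% of genes, with 1768 of 10589 at an unadjusted p under 0.05, while DESeq2 called 223, without any of the 4 members (adjusted p = 0.130 for Psap and 0.293 for Tmem106b). Sort1 stood at 693 to 842 CPM with ntc and 726 to 858 CPM with both ASOs (0.05 ± 0.04, SE, adjusted p = 0.467). Of the border macrophage markers, the 2 listed were both higher with the ASOs, with sums of 169 to 206 against 121 to 191 CPM, while 7 monocyte and neutrophil markers, of which 1 was lower, summed to 4.14 to 361 against 5.44 to 568 CPM. Their part in the Psap value was not tested. The WT and SgshKO ASO experiments were counted and fitted apart and differ in the ASOs given, so their values stand side by side without a test between them.

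**Figure D4:**
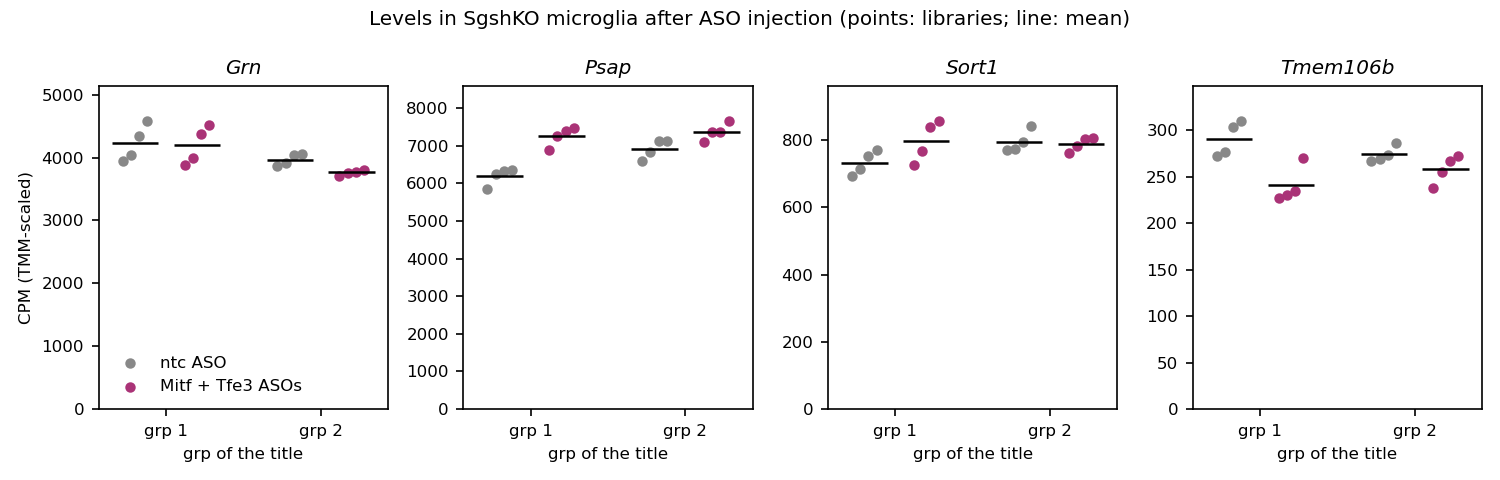
CPM (TMM-scaled) of the 4 genes in SgshKO microglia with the ntc ASO (grey) or the Mitf and Tfe3 ASOs (purple), by grp; points are libraries and lines are means. In grp 1 all treated libraries are above the controls for Psap and below them for Tmem106b, and in grp 2 both sets overlap. The share of all genes that separate within a single grp was not counted.

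The genes around the members were read from 7 lists with 70 genes in all: relatives of the members, sorting receptors and coats, proteases that cut progranulin or prosaposin with their inhibitor Slpi, hydrolases that saposins assist, genes of neuronal ceroid lipofuscinosis, other genes of frontotemporal dementia, and proposed receptors of the secreted proteins. Of 66 tested, 27 were called higher and 1 lower in SgshKO at 3 weeks, with a median log2 fold change of 0.25 against -0.02 over all genes. At 4 months 29 were higher and 4 lower. At 8 months 42 were higher and 7 lower, with a median of 0.33 against 0.02. With the Mitf ASO in WT, 20 of 58 were higher and 2 lower (median 0.08 against -0.01). The Tfeb ASO gave 3 higher and 0 lower, and the Tfe3 ASO 5 and 3. In SgshKO with both ASOs the balance was the other way, with 4 of 60 higher and 12 lower (median -0.06 against 0.00). Over all genes, 5.31% were called higher and 3.72% lower at 3 weeks, and 10.3% and 9.26% at 4 months. At 8 months the shares were 21.6% and 18.9%. The Mitf, Tfeb and Tfe3 ASOs gave 11%, 0.778% and 2.16% in either direction. Both ASOs in SgshKO gave 4.84% higher and 4.5% lower. These shares also stand beside the counts per list below. The lists were chosen with results of these data known, and the counts describe them.

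Among the relatives of the members, Sorl1, another VPS10-domain receptor, rose in SgshKO at 3 weeks (log2 fold change 0.84 ± 0.15, SE, edgeR adjusted p = 3.242e-04) and 8 months (0.89), where it went from 145 ± 13.4 CPM (SD, n = 4) to 268 ± 56.0 CPM (n = 7). Tmem106a, a paralog of Tmem106b, rose at 8 months (1.57 ± 0.09, adjusted p = 2.158e-12), from 27.8 ± 2.60 to 82.1 ± 6.21 CPM, while Tmem106c rose by 0.38. At 3 weeks 1 of the 4 relatives tested was called and at 8 months 3. Tmem106c was the one relative of 3 called with the Mitf ASO (0.28, adjusted p = 0.00515), and it was also called with the Tfe3 ASO (0.23, adjusted p = 0.0475).

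Of the 15 sorting genes, 5 were higher at 3 weeks and 10 at 8 months, and none was lower. Gga2, an adaptor that collects sortilin and mannose 6-phosphate receptors at the Golgi, led at 3 weeks (1.16 ± 0.11, SE, edgeR adjusted p = 8.130e-08) and was 21.3 ± 2.16 CPM (SD, n = 4) in WT and 53.8 ± 5.76 CPM (n = 7) in SgshKO at 8 months (1.33). Gnptg, a subunit of the enzyme that makes the mannose 6-phosphate tag, rose by 0.60 and 0.95, and Vps26a of the retromer rose by 0.45 at 3 weeks. Igf2r, a mannose 6-phosphate receptor, rose at 8 months from a low level (1.46 to 7.07 CPM, 2.29 ± 0.47). With the Mitf ASO, 3 of 14 were higher: Gga2 (0.56), Gnptg (0.47) and Vps29 (0.24). In SgshKO with both ASOs, Gga2 (-0.32, adjusted p = 9.005e-05), Vps29 (-0.21) and Vps35 (-0.18) were lower and Gnptg higher (0.22).

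Proteases that act on the precursors were called in both directions. Ctsb, a cathepsin, rose at 3 weeks (1.45 ± 0.08, SE, edgeR adjusted p = 3.166e-12), from 2653 ± 106 CPM (SD, n = 3) to 7262 ± 402 CPM (n = 4). Ctsd rose by 0.95 (adjusted p = 1.785e-08), whereas Mmp14, a membrane metalloprotease, fell by 2.002 on the log2 scale (adjusted p = 1.058e-09), from 61.5 ± 2.18 to 15.4 ± 2.20 CPM. Of 10 genes, 4 were higher and 1 lower at 3 weeks, and 8 higher and 2 lower at 8 months. The 2 lower at 8 months were Mmp14 (-1.62) and the lysosomal protease Lgmn (-0.20 ± 0.06, adjusted p = 0.00652), while Mmp12, another metalloprotease, was higher (3.57 ± 0.53, adjusted p = 6.401e-06), at 5.61 to 40.4 CPM against 0.624 to 2.03 CPM in WT. The 3 list genes with the largest fitted values at 8 months are genes of neutrophils and their progenitors: Elane had 0 counts in WT and 0 to 8.02 CPM in SgshKO, Slpi 0 counts and 0.394 to 8.08 CPM, and Prtn3 2 counts in all and 0 to 11.4 CPM, beside the neutrophil markers given above. The Mitf ASO raised Ctsb (0.82 ± 0.04, adjusted p = 2.371e-09), Ctsl (0.55), Ctsd (0.50) and Ctss (0.36) and lowered Mmp14 (-0.42). Ctsb was also higher with the Tfeb (0.28, adjusted p = 0.00302) and Tfe3 ASOs (0.40, adjusted p = 7.295e-05). In SgshKO with both ASOs, Ctss (0.47, adjusted p = 1.144e-05) and Mmp14 (0.39, adjusted p = 0.0212) were higher, and no other protease of the 7 tested was called.

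Hydrolases that depend on saposins rose with their helper Psap. At 3 weeks 7 of 11 were higher and 0 lower, led by Galc (0.96 ± 0.12, SE, edgeR adjusted p = 2.809e-06), which degrades galactosylceramide, Gla (0.78) and Hexa (0.60). At 8 months 7 were higher and 1 lower, led by Glb1 (1.53 ± 0.10, adjusted p = 3.932e-12), Gm2a, the GM2 activator (1.47), and Gla (1.42). With the Mitf ASO 7 were higher and 0 lower, among them Gm2a (0.46 ± 0.04, adjusted p = 6.279e-07) and Galc (0.44). Gm2a was also higher with the Tfeb (0.30) and Tfe3 ASOs (0.34), while Neu1 (-0.31) and Galc (-0.29) were lower with the Tfe3 ASO. With both ASOs in SgshKO, Gm2a was higher (0.44, adjusted p = 4.415e-04) and 3 were lower, among them Gla (-0.36) and Galc (-0.25).

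Lipofuscinosis genes were called higher for 7 of 11 at 3 weeks and 8 of 11 at 8 months, and none was lower. Tpp1, a tripeptidyl peptidase, rose by 0.66 and 0.72, Cln8 by 0.49 at 3 weeks, and Ppt1, a thioesterase, by 0.81 at 8 months. With the Mitf ASO 5 were higher, led by Tpp1 (0.45, edgeR adjusted p = 7.174e-06), Ppt1 (0.35) and Cln3 (0.29). In SgshKO with both ASOs 4 were lower and 0 higher, among them Cln8 at -0.36 (adjusted p = 5.419e-04) and Cln3 at -0.24. Of the other dementia genes, the autophagy receptors Optn (1.13 and 2.32) and Sqstm1 (0.52 and 0.84) rose at 3 weeks and 8 months, Chmp2b by 0.39 at 3 weeks, and Tardbp fell by 0.37 at 8 months, with 3 of 11 higher and 0 lower at 3 weeks and 5 and 3 at 8 months. None of 9 was called with the Mitf ASO, Smcr8 was lower with the Tfe3 ASO (-0.26), and C9orf72 (-0.46, adjusted p = 0.00245) and Smcr8 (-0.15, adjusted p = 0.0356) were lower with both ASOs. Among the proposed receptors Tnfrsf1b was lower at 8 months (-0.34) and with the Mitf ASO (-0.20), and Gpr37l1 was called higher at 8 months with 2 counts in all WT libraries and 0 to 1.07 CPM in SgshKO.

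Of the 58 list genes tested in both experiments, 36 were higher in SgshKO at 8 months and 20 with the Mitf ASO in WT. The 20 genes in common are 55.6% of the first set and 100% of the second, beside 62.1% of the 58 that were higher at 8 months. Over the 9866 genes tested in both, 2141 (21.7%) were higher at 8 months and 577 with the Mitf ASO, and the 490 in common are 22.9% of the first set and 84.9% of the second.

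**Figure D5:**
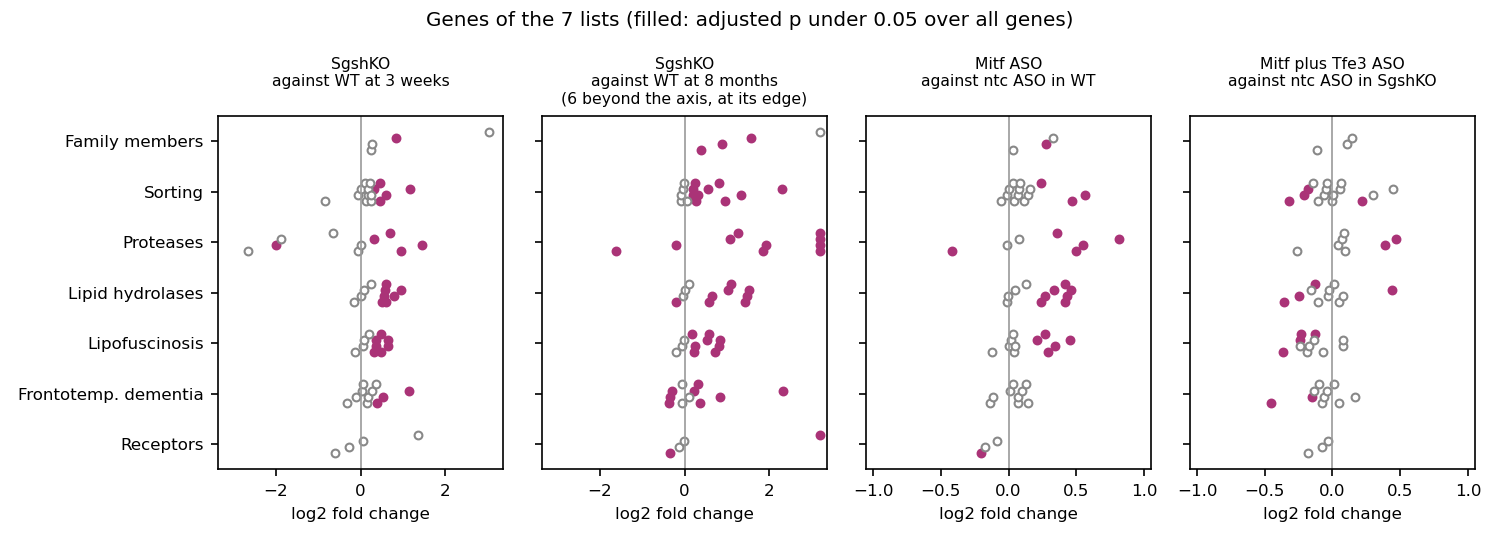
log2 fold changes of the genes of the 7 lists in 4 comparisons, one point per gene and one line per list; filled points have an adjusted p under 0.05 over all genes, the left pair of panels has a wider axis, and 6 points at 8 months lie beyond it and are drawn at its edge. Filled points lie mostly to the right of 0 in the first 3 panels (27, 42 and 20 genes higher), and in the SgshKO ASO panel 12 of 16 lie to the left.

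Across the 22 age-series libraries the 3 genes closest to each member in log2 CPM were named from 14309 genes. For Grn they were Dnase2a (Pearson r = 0.977), which encodes a lysosomal nuclease, Nek6 (0.967) and Man2b2 (0.966), a lysosomal mannosidase. For Psap they were Ctsz (0.973), a cathepsin, Os9 (0.971) and Nucb1 (0.971). For Sort1 they were Gbp7 (0.914), Arnt (0.913) and Tlr3 (0.895), and for Tmem106b Tnks2 (0.894), Vps35 of the retromer (0.891) and Inpp4b (0.886). In the 20 WT ASO libraries the same pairs had r of 0.53, -0.03 and 0.80 for Grn and 0.78, 0.89 and 0.79 for Psap, in the order named. For Sort1 they had 0.67, 0.58 and 0.63, and for Tmem106b 0.31, 0.82 and 0.43. Between the members, Grn and Psap had r = 0.80 over the age series, 0.92 over the WT ASO and -0.28 over the SgshKO ASO libraries, and Grn and Sort1 -0.65, 0.25 and -0.10. These correlations pool groups that differ in genotype, age or treatment, the libraries of a table share its processing, and they carry no test.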

How the data were processed

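The members and gene lists were chosen with earlier results of these data known. The authors deposited raw counts per gene for each of the 3 experiments, TPM for the age series, and a normalised, batch-corrected signal on a linear scale for the ASO libraries, whose method is not given in the sources used here. Tools in the submitters' processing notes, without roles, are STAR 2.5.3a, kallisto 0.44.0, HOMER 4.11, DESeq2 1.36.0 and R 4.2.3, with build mm10. Per the labels' protocols the libraries were dUTP-stranded and single-end. Antisense reads and copies of a gene were not separated further.

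Counts were tested with edgeR 4.0.16 in R 4.3.3 (quasi-likelihood F test, TMM, filterByExpr with a minimum count of 10), in 1 model per table, with Benjamini-Hochberg adjustment over all genes tested and a threshold of 0.05. The SE is the absolute log2 fold change over the square root of F. The age model held the groups alone, and same-numbered libraries were not paired there (r of -0.171 to 0.115 at 3 weeks). The ASO models also held grp. In WT, same-numbered libraries of different treatments had r of -0.0333 to 0.640 over 40 pairs, with a mean of 0.354. Libraries with other numbers had a mean r of -0.117. These r are of deviations from group means, so the mean for other numbers follows from that for same numbers and is no separate measure. PBS replicate 4 has grp 4 in its title and another in its column name. Alternatives used DESeq2 1.42.0, limma 3.58.1 on log2(TPM + 1), other filters, scalings and blocks, and each library left out in turn. The fits were also run on counts simulated from 1 mean per gene, with set changes in 1 group. No differences between grps were simulated, so that run says nothing about the block. Genes named from the lists are, per list, up to 3 called with the largest change in each comparison of 3 weeks, 8 months and ASOs, and Vps35, Ctss, Mmp14, Mmp12 and Lgmn in further places were chosen after their values were seen. Some genes that this rule names are not reported here. Sequencing batch, RNA kit and sex are not given per library in the labels.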

Additional observations from a re-analysis of the deposited data

Results flagged for a closer look

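In SgshKO at 8 months, replicate 5 held 197 CPM of Tmem106b, while the other 6 libraries lay between 149 and 168 CPM. The gap of this library to the next is 0.615 of the range of the group, above the limit of Dixon's test for 7 libraries. Of 40 sets of values tested this way it was the one that stood out, and chance alone marks about 1 in 20. Without this library the genotype comparison at 8 months was still not called.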

How the results depend on the processing

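No called result reversed. Tmem106b at 8 months, which was not called, was -0.04 with TPM. Of the members' values with 1 library left out, 699 kept their side of the threshold, 26 lost the call and 3 gained it, and with the other alternatives 644, 28 and 8 did. The 644 include fits without a filter on low counts in the ASO experiments. These tested the same 10277 and 10589 genes as the main fits and could only repeat them. Of the 699 and 644, 22 and 14 changed sign, and 0 of these had been called. For each change below the cause was not tested.

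SgshKO, 8 against 4 months: Psap lost its call with no filter on low counts (0.27), with a replicate block (0.28; Grn 0.32), with TPM at pseudocount 1 or 0.1 (0.22 in both) and with TPM unfiltered (0.22; Grn 0.28). Tmem106b lost it with Ddx3y minus Xist as a covariate (-0.28) and with only the groups compared (-0.29). It also lost it without the 2 SgshKO 8-month libraries above 1000 CPM of monocyte and neutrophil markers (-0.25). Both SgshKO 4-month libraries, at 3015 and 14830 CPM of these markers, stayed in that fit. Tmem106b in WT, 8 months against 3 weeks, lost its call with the Ddx3y minus Xist covariate (-0.31) and with only the groups compared (-0.30). The same held with TPM at pseudocount 1, filtered or not (-0.30), and at 0.1 (-0.31). The change of the Sort1 effect from 3 weeks to 8 months passed with TPM (-0.43 at both pseudocounts), and Psap in WT over that span with DESeq2 (0.22). Unfiltered TPM ended the Psap genotype calls at 3 weeks (0.38) and 4 months (0.36).

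In the WT ASO fits without the replicate block, calls were lost for Grn and Psap with the Tfeb ASO (0.23 each), Psap between the Mitf and Tfe3 ASOs (0.23) and Grn between the Mitf and Tfeb ASOs (0.25). Psap with the Tfe3 ASO passed with DESeq2 (0.13) and on the authors' signal (0.12), and between the Mitf and Tfeb ASOs with RLE and DESeq2 (0.13 each) and on that signal (0.14). In SgshKO, Tmem106b lost its call with a replicate block within grp (-0.18), with no grp term (-0.18) and on the authors' signal (-0.18); in grp 1 alone Psap (0.24) and Tmem106b (-0.26), and in grp 2 alone (0.080 and -0.10), were not called. Same-numbered libraries there had r of 0.0880 to 0.612 in grp 1 (mean 0.323) and 0.0839 to 0.156 in grp 2 (mean 0.119). Libraries with other numbers had means of -0.106 and -0.0392, which again follow from the use of deviations from group means. The main fit did not pair same-numbered libraries, and these values do not settle whether the number marks pairs.

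List genes called higher were 7 with DESeq2 and 1 without the block for the Tfeb ASO, 13 without the block for Mitf and 3 for Tfe3, with 0 lower for both; 2 were lower at 3 weeks with RLE or DESeq2.

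With 1 library left out in turn, the values ran from -0.40 to -0.28 for the change of the Sort1 effect, 0.18 to 0.26 for Psap and -0.40 to -0.28 for Tmem106b in WT from 3 weeks to 8 months, 0.29 to 0.46 for Grn, 0.26 to 0.37 for Psap and -0.34 to -0.18 for Tmem106b in SgshKO from 4 to 8 months, 0.18 to 0.25 for Grn with the Tfeb ASO and -0.20 to -0.16 for Tmem106b with both ASOs in SgshKO. TPM shifted the median of all genes to -0.12 at 4 months and -0.14 at 8 months. The 2 libraries a group at 4 months limit the comparisons there.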
